A study of Mus musculus with 36 samples.

Results

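*Trp53* encodes the transcription factor p53, and the 9 other genes described here encode proteins that hold p53 in check or are switched on by it. The 10 genes were taken by name, as the entries of the count table whose Ensembl identifiers carry the symbols *Trp53*, *Mdm2*, *Mdm4*, *Ccng1*, *Bax*, *Bbc3*, *Pmaip1*, *Phlda3*, *Trp53inp1* and *Gdf15*, which are 10 of 38887 genes. In unstressed cells Mdm2 and Mdm4 bind p53 and keep it low and inactive, and DNA damage or other stress frees it to act on genes that stop the cell cycle, aid repair or start death at the mitochondrion. In hematopoietic stem cells p53 is known to support quiescence and to remove damaged cells. Much of its regulation takes place on the protein, which RNA counts do not measure.

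RNA was sequenced from cells sorted from the BM of mice with and without the receptor for interleukin-27, to ask how this receptor shapes the response of stem cells to Angiotensin II (Ang II), a hormone that raises blood pressure. From the lineage-negative gate positive for Sca-1 and c-kit, long-term hematopoietic stem cells (LT-HSC, with CD150 and without CD48) and HPC-1, a progenitor with CD48 and without CD150 that the sample labels call ST-HSC, were collected at 5000 cells a library. All mice carried the germline *Apoe* knockout, ate the Western diet (WD) from 8 weeks of age for 12 weeks, and received Ang II or PBS for the last 2 weeks. Their *Il27ra* was intact (*Apoe*-/-), heterozygous (*Apoe*-/-*Il27ra*+/-) or knocked out (*Apoe*-/-*Il27ra*-/-), and the last 2 are also called heterozygotes and knockouts. LT-HSC after PBS were 1 library of *Apoe*-/-, 3 heterozygotes and 3 knockouts, and after Ang II 2, 4 and 4. HPC-1 after PBS were 2, 3 and 3 libraries in the same order, and after Ang II 3, 4 and 4. Replicates are numbered without naming the animal, so every p below measures spread between libraries. The labels give no sex either. The study's own tests had the sex of the mouse as a further factor. The main fit below had no such term, and an alternative fit took Y-linked genes as a covariate. The 36 libraries held 1.98 to 6.86 M counts (median 3.14), 11 of them over 4 M (7 of 17 LT-HSC and 4 of 19 HPC-1), so that 3 counts stood for 0.44 to 1.51 CPM (counts scaled to a library of 1 M), a bound for counting error alone.

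Before the results, the labels were compared with marker genes. The 10 LT-HSC markers summed to 1274.3 to 2356.8 CPM in 15 LT-HSC libraries and to 135.4 to 356.8 CPM in the HPC-1 libraries, and the 9 HPC-1 markers to 64.2 to 447.5 CPM in those 15 LT-HSC and 4320.1 to 7890.9 CPM in HPC-1. The other 2 LT-HSC libraries stood apart by these markers. Replicate 2 of PBS *Apoe*-/-*Il27ra*-/- LT-HSC held all 10 LT-HSC markers at a sum of 269.0 CPM (most abundant *Hlf*, 154 CPM) and all 9 HPC-1 markers at 5595.7 CPM (most abundant *Mpo*, 3559 CPM), the profile of an HPC-1 library. Replicate 2 of Ang II *Apoe*-/-*Il27ra*-/- LT-HSC gave 908.9 CPM of LT-HSC markers, 1591.6 CPM of HPC-1 markers (*Mpo*, 1097 CPM) and 6826.8 CPM over 6 of 6 granulocyte markers (most abundant *S100a9*, 2157 CPM). The genes shared by the gate, *Kit* and *Ly6a*, summed to 540.0 to 1212.6 CPM in every library, nearly all of it *Kit*. *Ly6a* alone had 6.71 to 28.8 CPM in LT-HSC and 1.18 to 14.6 CPM in HPC-1. Markers of other lineages varied between libraries: megakaryocyte genes summed to 86.1 to 1102.6 CPM in LT-HSC and 59.7 to 139.9 CPM in HPC-1, erythroid genes to 7.3 to 983.1 CPM, B lymphoid to 2.3 to 20.6, T lymphoid to 0.8 to 12.6 and hepatocyte to 0 to 3.1 CPM. Granulocyte genes summed to 25.8 to 464.7 CPM in HPC-1. Replicate 3 of PBS *Apoe*-/-*Il27ra*-/- LT-HSC held 1190.1 CPM of granulocyte genes, 898.0 CPM of erythroid genes and 447.5 CPM of HPC-1 markers. The last is the highest HPC-1 sum of the 15 LT-HSC libraries. This library also held RNA of other cell types, and it was kept where the 2 above were left out.

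*Il27ra* RNA separated the LT-HSC genotypes in part. Its level was 7.01 to 19.4 CPM (median 16.2) in 7 *Apoe*-/-*Il27ra*-/- LT-HSC libraries, 23.4 to 42.6 CPM (median 27.0) in 7 *Apoe*-/-*Il27ra*+/- libraries, while the pair of *Apoe*-/- libraries given Ang II held 42.7 and 51.7 CPM. The single library labelled PBS *Apoe*-/- had 17.1 CPM, inside the knockout range, and is called the library labelled PBS *Apoe*-/- from here on. Its sum of intestinal markers, given below, was 358.9 CPM, above the 35.1 to 110.8 CPM of the knockout LT-HSC. So were the sums of the *Apoe*-/- pair (509.9 and 544.3 CPM). Its genotype was not tested. In HPC-1 the *Apoe*-/- libraries had 6.06 to 11.9 CPM, the heterozygotes 5.45 to 16.6 and the knockouts 4.64 to 11.1, so that the genotypes could not be told apart by this gene. Together with the 2 libraries above, the library labelled PBS *Apoe*-/- makes up the 3 LT-HSC libraries left out in one of the alternative fits.

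Most of the 10 genes were expressed in both cell types, at levels that spanned a wide range when scaled to the length of their exons. As CPM per kilobase of exon, *Trp53* had the highest mean level, 31.4 ± 4.47 in LT-HSC (SD, n = 17) and 38.0 ± 3.07 in HPC-1 (SD, n = 19). *Ccng1*, whose product cyclin G1 binds the phosphatase PP2A and acts back on Mdm2, followed at 22.4 and 19.6 CPM per kilobase. The p53 ubiquitin ligase *Mdm2* had 18.8 and 17.5 CPM per kilobase, and its relative *Mdm4*, which blocks the transactivation domain of p53, 8.89 and 8.40. *Bax*, a pore former of the outer mitochondrial membrane, had 7.60 and 10.3 CPM per kilobase, and *Trp53inp1*, a cofactor of p53 in stress and autophagy, 6.84 and 8.21. The BH3-only death genes were far lower, *Bbc3* (PUMA) at 2.72 and 2.03 CPM per kilobase and *Pmaip1* (NOXA) at 0.433 and 1.15. *Phlda3*, a membrane-binding PH-domain protein, had 0.538 and 0.701 CPM per kilobase. *Gdf15*, a secreted stress cytokine, had 0.102 and 0.0326 CPM per kilobase, was at 0 counts in 9 of 17 LT-HSC and 18 of 19 HPC-1 libraries, and reached 15 counts in all; it did not pass the filter on low counts and was not tested.

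**Figure D1:**
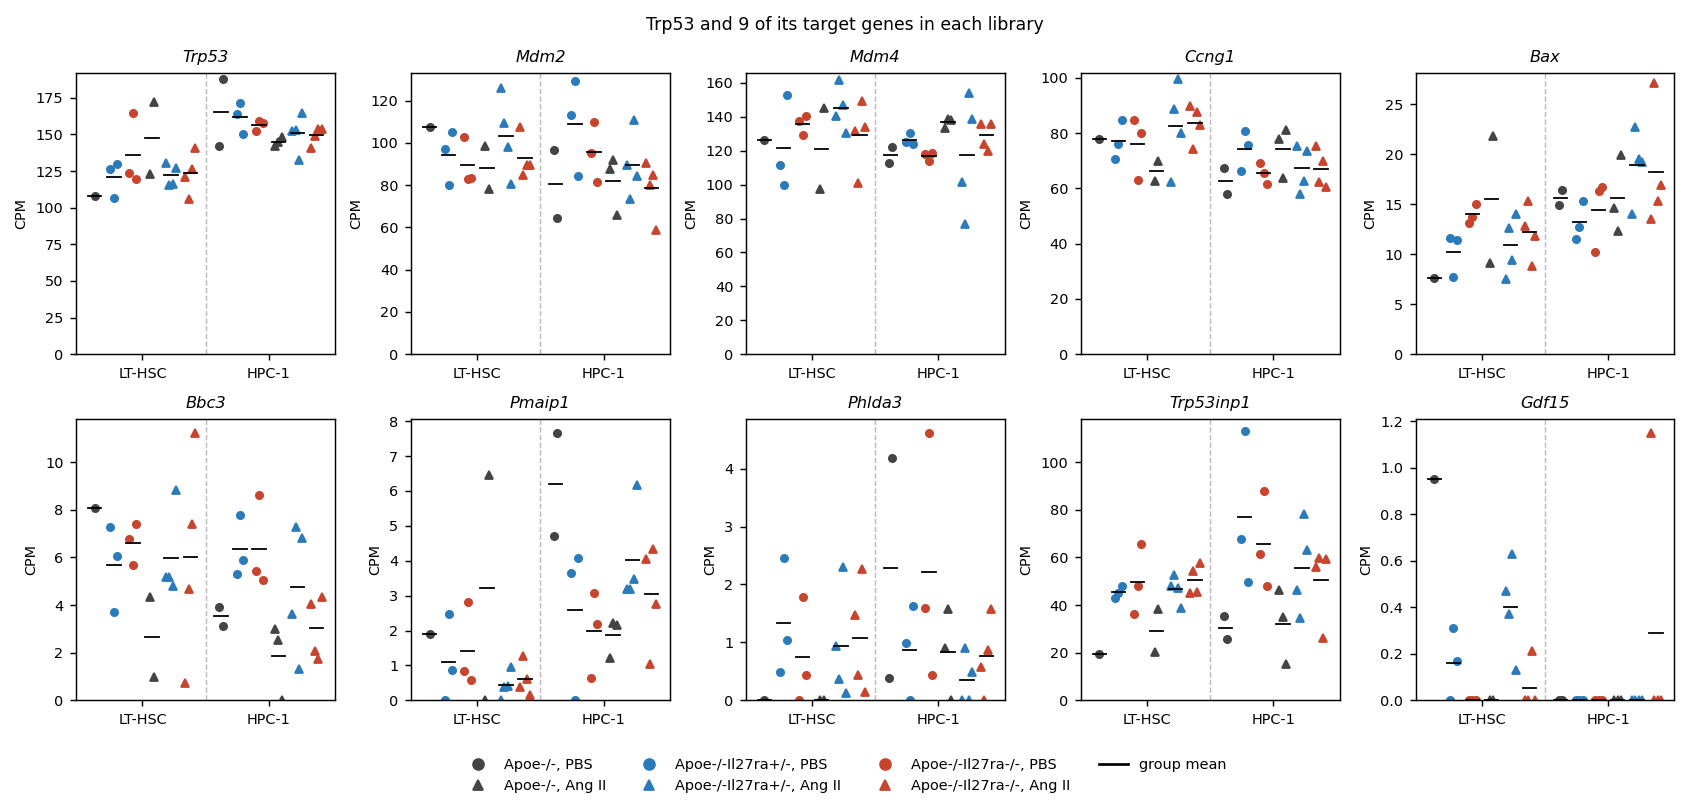
Level of each of the 10 genes in CPM (vertical axis) in every library, by cell type, agent and *Il27ra* genotype (horizontal axis). *Trp53* lies between 106 and 188 CPM in all 36 libraries, and *Pmaip1*, *Phlda3* and *Gdf15* stay under 8 CPM.

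The genes lie on 7 chromosomes of the mouse genome (mm10; genes as in GENCODE M21), each given with its identifier and strand. *Trp53* (ENSMUSG00000059552) spans chr11:69580359-69591873 on the plus strand, and *Ccng1* (ENSMUSG00000020326) lies on the same chromosome at chr11:40748552-40755311 on the minus strand. *Mdm2* (ENSMUSG00000020184) is at chr10:117688875-117710758, minus, and *Mdm4* (ENSMUSG00000054387) at chr1:132959484-133030561, minus, on the chromosome that also holds *Phlda3* (ENSMUSG00000041801, chr1:135766119-135769136, plus). *Bax* (ENSMUSG00000003873, chr7:45461697-45466898, minus) and *Bbc3* (ENSMUSG00000002083, chr7:16308393-16318205, plus) share a chromosome. *Pmaip1* (ENSMUSG00000024521) is at chr18:66458533-66465565, plus, *Trp53inp1* (ENSMUSG00000028211) at chr4:11156431-11174379, plus, and *Gdf15* (ENSMUSG00000038508) at chr8:70629393-70632456, minus. The annotated gene *Gm45808* overlaps *Bax* on the same strand, so that counts may be split between them, and *Gm29257* overlaps *Mdm4* on the other strand.

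*Trp53* itself was lower in LT-HSC than in HPC-1. Of the LT-HSC given PBS, the library labelled *Apoe*-/- held 108 CPM, the heterozygotes 127, 107 and 129.7, and the knockouts 123, 164.5 and 119.6. Of those given Ang II, the *Apoe*-/- pair held 123 and 172 CPM, the heterozygotes 131, 116, 116 and 127, and the knockouts 121, 106, 126 and 141. LT-HSC libraries were thus mostly close together, with replicate 2 of PBS *Apoe*-/-*Il27ra*-/- and replicate 2 of Ang II *Apoe*-/- well above the rest. For HPC-1 given PBS the *Apoe*-/- libraries held 142 and 188 CPM, the heterozygotes 164, 172 and 150.2, and the knockouts 152, 159 and 158. For HPC-1 given Ang II the *Apoe*-/- libraries held 142, 145 and 148 CPM, the heterozygotes 152, 153, 133 and 165, and the knockouts 141, 149, 154 and 154. 14 of 17 LT-HSC libraries lay below every HPC-1 library, and the 3 that did not were replicate 2 of PBS *Apoe*-/-*Il27ra*-/-, replicate 2 of Ang II *Apoe*-/- and replicate 4 of Ang II *Apoe*-/-*Il27ra*-/-.

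In the edgeR fit of 12 groups, the mean of the 6 differences between LT-HSC and HPC-1 was −0.30 for *Trp53* on the log2 scale (1.23-fold lower, SE 0.0715, 95% confidence interval −0.44 to −0.15, adjusted p 0.00092). Without the 3 libraries named above it was −0.24 (adjusted p 0.00238), and with replicate number as a block −0.26 (adjusted p 0.00807). It was called in each of the 36 fits that left out 1 library, and not with the 11 libraries over 4 M counts alone (−0.25, adjusted p 0.211). Those 11 hold no *Apoe*-/- library and 1 HPC-1 library in each of the 4 other combinations, so that this is a mean of 4 differences, and replicate 2 of PBS *Apoe*-/-*Il27ra*-/- is 1 of their 7 LT-HSC. The fit without the 3 libraries, like any fit below without the library labelled PBS *Apoe*-/-, holds no PBS LT-HSC of this genotype. Its mean leaves out that difference. In bulk RNA, fewer cells of a type and less RNA per cell cannot be told apart, here and in every difference below.

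Ordered by mean level, 5 of the 6 HPC-1 groups led for *Trp53*. They ran from PBS *Apoe*-/- (165 CPM) through PBS *Apoe*-/-*Il27ra*+/- (162), PBS *Apoe*-/-*Il27ra*-/- (157), Ang II *Apoe*-/-*Il27ra*+/- (151) to Ang II *Apoe*-/-*Il27ra*-/- (149). Ang II *Apoe*-/- LT-HSC (147 CPM) came next, ahead of Ang II *Apoe*-/- HPC-1 (145), and then the LT-HSC groups PBS *Apoe*-/-*Il27ra*-/- (136), Ang II *Apoe*-/-*Il27ra*-/- (123.5), Ang II *Apoe*-/-*Il27ra*+/- (122), PBS *Apoe*-/-*Il27ra*+/- (121) and the library labelled PBS *Apoe*-/- (108). Of the 11 steps between neighbours in this order, 1 was wider than the larger SD of its pair, the last one, which ends in a single library.

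The regulators that bind p53 directly were not called between the cell types. *Mdm2* had a mean level of 95.3 ± 13.3 CPM in LT-HSC (SD, n = 17) and 89.1 ± 17.9 CPM in HPC-1 (SD, n = 19), within 58.6 to 129 CPM over the 36 libraries, and a log2 difference of 0.11 (95% confidence interval −0.07 to 0.30, adjusted p 0.401). *Mdm4* had 131.5 ± 19.1 and 124 ± 16.7 CPM (76.5 to 161 CPM), with a log2 difference of 0.07 (−0.10 to 0.24, adjusted p 0.667). Without 1 library they ran from 0.06 to 0.21 (lowest without the library labelled PBS *Apoe*-/-) and from 0.02 to 0.15 (lowest without replicate 2 of Ang II *Apoe*-/- LT-HSC), both highest without replicate 1 of PBS *Apoe*-/-*Il27ra*+/- HPC-1. For neither gene was any step between neighbouring groups wider than their SD.

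*Ccng1* and *Trp53inp1* pointed in opposite directions, both short of the threshold. *Ccng1* had 78.6 ± 10.6 CPM in LT-HSC and 68.7 ± 7.52 CPM in HPC-1, and 7 of 17 LT-HSC libraries lay above every HPC-1 library. Its log2 difference was 0.18 (SE 0.0814, adjusted p 0.0892), and it passed in 6 of 13 other settings: DESeq2 and RLE normalization (0.26 with each, adjusted p 0.00376 and 0.0127), upper-quartile normalization (0.23, 0.0262), a mean of at least 10 counts (0.22, 0.0175), limma (0.21, 0.0325) and the fit without the 3 libraries (0.19, 0.0441). *Trp53inp1* had a log2 difference of −0.36 (SE 0.155, adjusted p 0.0654), and passed with no filter on low counts (−0.37, 0.032) and with the replicate block (−0.43, 0.0345). Leaving out 1 library made a call for *Ccng1* in 6 of 36 fits, without LT-HSC replicate 2 of PBS *Apoe*-/-*Il27ra*-/- (0.20), replicate 4 of Ang II *Apoe*-/-*Il27ra*+/- (0.21) or of Ang II *Apoe*-/-*Il27ra*-/- (0.21), or HPC-1 replicate 1 (0.25) or 3 (0.21) of PBS *Apoe*-/-*Il27ra*+/- or replicate 1 of Ang II *Apoe*-/-*Il27ra*+/- (0.22). It made one for *Trp53inp1* in 5 of 36, without LT-HSC replicate 3 of PBS *Apoe*-/-*Il27ra*-/- (−0.40) or replicate 2 of Ang II *Apoe*-/- (−0.45), or HPC-1 replicate 3 of Ang II *Apoe*-/- (−0.42), replicate 2 of Ang II *Apoe*-/-*Il27ra*+/- (−0.39) or replicate 3 of Ang II *Apoe*-/-*Il27ra*-/- (−0.40).

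The 2 death genes *Bax* and *Pmaip1* were lower in LT-HSC, with less certainty than *Trp53*. Given PBS, the LT-HSC library labelled *Apoe*-/- held 7.59 CPM of *Bax*, the heterozygotes 11.6, 7.68 and 11.4, and the knockouts 13.2, 13.7 and 15.1, while HPC-1 held 14.9 and 16.4 in *Apoe*-/-, 11.6, 12.7 and 15.3 in the heterozygotes and 10.2, 16.3 and 16.7 in the knockouts. Given Ang II, the *Apoe*-/- LT-HSC held 9.11 and 21.9 CPM, the heterozygotes 7.52, 12.6, 9.42 and 14.03, and the knockouts 12.9, 15.4, 8.82 and 11.8. HPC-1 given Ang II held 14.7, 12.4 and 19.9 CPM with *Il27ra* intact, 14.1, 22.8, 19.6 and 19.2 in the heterozygotes, and 13.6, 27.1, 15.4 and 16.96 in the knockouts. The cell types overlapped: 6 of 17 LT-HSC libraries lay below every HPC-1 library and 2 of 19 HPC-1 libraries above every LT-HSC library. The mean log2 difference of *Bax* was −0.47 (1.38-fold lower, SE 0.172, 95% confidence interval −0.82 to −0.12, adjusted p 0.0289). It was called in 5 of 13 other settings (log2 −0.51 to −0.37, adjusted p 0.0204 to 0.213), and without the 3 libraries it was −0.37 (adjusted p 0.0731), with the replicate block −0.44 (0.0644). The call ended too with upper-quartile (−0.42) and RLE normalization (−0.39), no filter (−0.47), limma (−0.40) and libraries under (−0.44) or over 4 M counts (−0.51). The call also ended in 8 of 36 fits that left out 1 library, those without the library labelled PBS *Apoe*-/- (−0.35), replicate 1 of Ang II *Apoe*-/- LT-HSC (−0.38) or of PBS *Apoe*-/-*Il27ra*+/- HPC-1 (−0.40), replicate 4 of Ang II *Apoe*-/-*Il27ra*-/- LT-HSC (−0.44), replicate 3 of PBS *Apoe*-/-*Il27ra*+/- HPC-1 (−0.42), replicate 2 (−0.43) or 3 (−0.42) of PBS *Apoe*-/-*Il27ra*-/- HPC-1 or replicate 2 of Ang II *Apoe*-/-*Il27ra*-/- HPC-1 (−0.40).

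*Pmaip1*, which frees BAX and BAK by binding MCL1, was scarce in both cell types, with 73 counts over the LT-HSC and 209 over the HPC-1 libraries. Among LT-HSC given PBS, the library labelled *Apoe*-/- held 1.9 CPM, the heterozygotes 0, 2.46 and 0.87, and the knockouts 0.85, 2.83 and 0.58, and among those given Ang II the *Apoe*-/- pair held 0 and 6.46, the heterozygotes 0, 0.37, 0.42 and 0.94, and the knockouts 0.37, 1.28, 0.62 and 0.14. Among HPC-1 given PBS, *Apoe*-/- held 4.71 and 7.67 CPM, the heterozygotes 3.64, 0 and 4.08, and the knockouts 0.64, 3.08 and 2.2, and among those given Ang II *Apoe*-/- held 1.2, 2.22 and 2.16, the heterozygotes 3.18, 3.19, 3.48 and 6.18, and the knockouts 4.04, 1.04, 4.35 and 2.76. LT-HSC were low apart from replicate 2 of Ang II *Apoe*-/-, and the ranges of the cell types overlapped. The mean log2 difference was −1.30 (2.47-fold lower, SE 0.522, 95% confidence interval −2.36 to −0.25, adjusted p 0.0472), and without the 3 libraries −1.54 (adjusted p 0.0177). With the replicate block it was −1.46 (adjusted p 0.0841), and it was called in 6 of the 12 other settings that tested it (adjusted p 0.00242 to 0.211; a filter at a mean of 10 counts removed it), not with upper-quartile (−1.25) or RLE normalization (−1.23), no filter (−1.31) or libraries under (−1.34) or over 4 M counts (−2.14).

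Of the fits without 1 library, *Pmaip1* was called in 12 of 36, with log2 differences of −2.40 to −1.14 and adjusted p 0.00375 to 0.0898. In LT-HSC the call ended without replicate 1 (−1.22) or 3 (−1.24) of PBS *Apoe*-/-*Il27ra*+/-, replicate 1 (−1.27) or 3 (−1.23) of PBS *Apoe*-/-*Il27ra*-/-, replicate 1 of Ang II *Apoe*-/- (−1.14), replicate 1 (−1.26), 2 (−1.29) or 3 (−1.29) of Ang II *Apoe*-/-*Il27ra*+/-, and replicate 1 (−1.26), 3 (−1.31) or 4 (−1.21) of Ang II *Apoe*-/-*Il27ra*-/-. In HPC-1 it ended without replicate 1 (−1.36) or 2 (−1.24) of PBS *Apoe*-/-, replicate 1 (−1.18) or 3 (−1.19) of PBS *Apoe*-/-*Il27ra*+/-, replicate 2 (−1.21) or 3 (−1.26) of PBS *Apoe*-/-*Il27ra*-/-, and replicate 2 of Ang II *Apoe*-/- (−1.25). It also ended without HPC-1 replicate 1 (−1.29), 2 (−1.32) or 4 (−1.25) of Ang II *Apoe*-/-*Il27ra*+/- and replicate 1 (−1.28), 3 (−1.27) or 4 (−1.31) of Ang II *Apoe*-/-*Il27ra*-/-. The value furthest from the rest, −2.40, came without replicate 2 of Ang II *Apoe*-/- LT-HSC.

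The remaining death and survival genes of the 10 were not called. *Bbc3* had 5.78 CPM on average in LT-HSC and 4.31 in HPC-1 (0 to 11.2 CPM, log2 difference 0.48, 95% confidence interval −0.20 to 1.16, adjusted p 0.303). *Phlda3*, which passed the filter in HPC-1 and not in LT-HSC, had 62 counts over 17 LT-HSC and 72 counts over 19 HPC-1 libraries, 0 to 4.62 CPM. Its level in HPC-1 let it into the test, so that its log2 difference of −1.65 (interval −3.39 to 0.10) is a description alone. In the libraries over 4 M counts (4 differences, see above) the sign of this difference turned (0.36), and without the library labelled PBS *Apoe*-/- it was −0.76. *Bbc3* was at 0.24 without replicate 1 of Ang II *Apoe*-/- LT-HSC.

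Of the 10 genes, 8 passed the filter on low counts in each cell type by itself, and a gene that passes in 1 cell type alone is let in by its higher level there. Of these 8, 3 were called between the cell types, all lower in LT-HSC, beside 44.6% of the 12926 genes that passed in both. 5 of the 8 had an unadjusted p under 0.05, beside 52.4% of the 12926. The median log2 difference was −0.11 over the 8 and −0.09 over the 12926. Of all 18013 genes tested, 35.7% were called (16.5% higher and 19.2% lower in LT-HSC). Over all members DESeq2 called 4 and limma 3, where they called 6876 and 7653 of all genes, beside 6435 by edgeR.

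**Figure D2:**
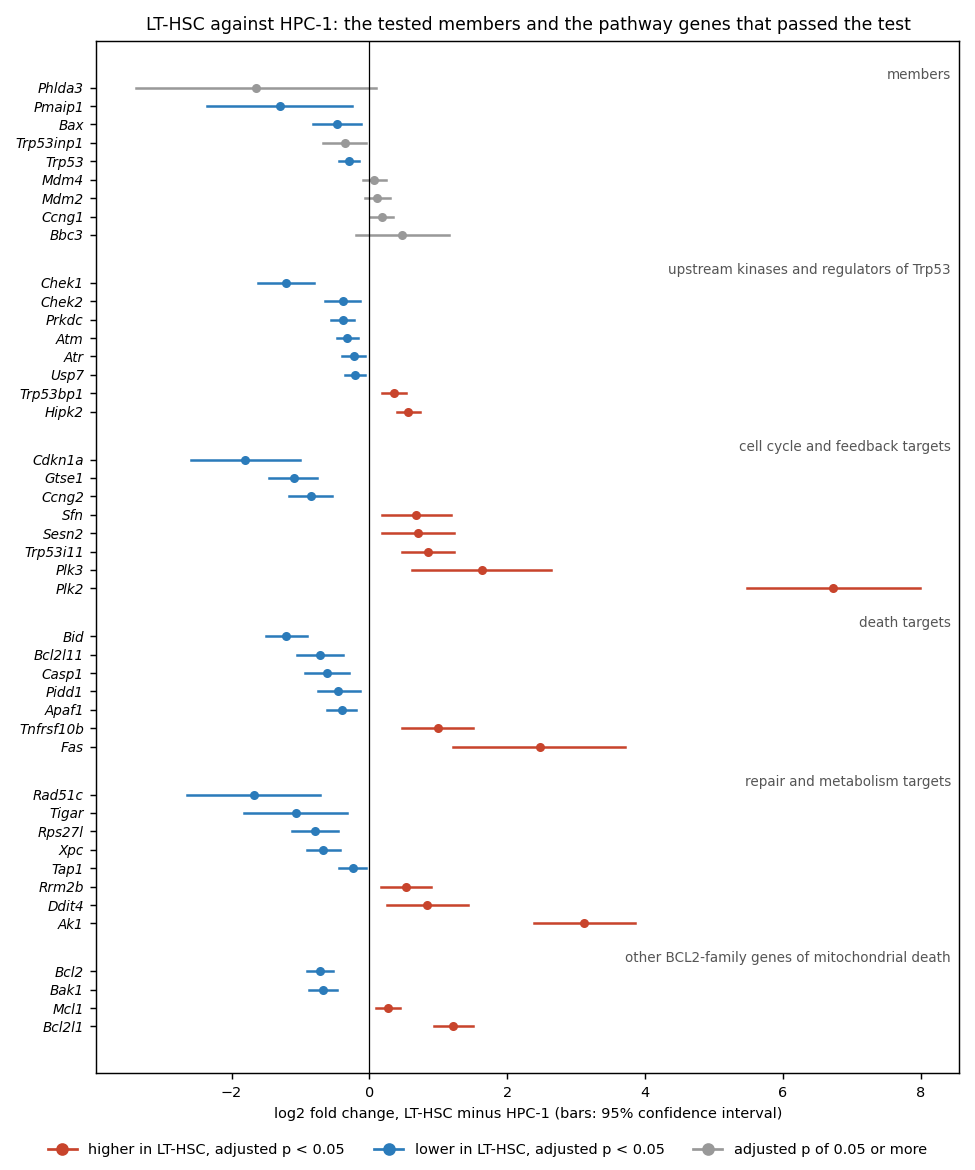
Log2 difference between LT-HSC and HPC-1 (horizontal axis) with 95% confidence intervals, as the mean of 6 differences. Shown are the 9 tested genes and the further p53 pathway genes, described below, that were called in this mean. *Plk2*, *Plk3* and *Fas*, let into the test by their high level in LT-HSC, are among them. The mean lies at −0.30 for *Trp53*, −0.47 for *Bax*, −1.30 for *Pmaip1* and −1.80 for *Cdkn1a*.

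Within the 6 combinations of genotype and agent, fewer libraries stood behind each difference. For *Trp53* the log2 difference between LT-HSC and HPC-1 was −0.62 (adjusted p 0.157), −0.41 (0.116) and −0.21 (0.721) after PBS in *Apoe*-/-, *Apoe*-/-*Il27ra*+/- and *Apoe*-/-*Il27ra*-/-, and 0.02 (1), −0.30 (0.155) and −0.27 (0.219) after Ang II. *Bax* ran from −1.04 in PBS *Apoe*-/- through −0.78 in Ang II *Apoe*-/-*Il27ra*+/-, −0.58 in Ang II *Apoe*-/-*Il27ra*-/-, −0.35 in PBS *Apoe*-/-*Il27ra*+/- and −0.05 in PBS *Apoe*-/-*Il27ra*-/- to −0.01 in Ang II *Apoe*-/-. *Pmaip1* ran from −2.96 in Ang II *Apoe*-/-*Il27ra*+/- through −2.40 in Ang II *Apoe*-/-*Il27ra*-/-, −1.69 in PBS *Apoe*-/-, −1.13 in PBS *Apoe*-/-*Il27ra*+/- and −0.44 in PBS *Apoe*-/-*Il27ra*-/- to 0.79 in Ang II *Apoe*-/-. Ang II *Apoe*-/- was the pair in which all these differences were small or positive, and there each sign rested on 1 library: without replicate 2 of the LT-HSC *Trp53* moved to −0.23 and *Pmaip1* to −5.78, and without replicate 1 *Bax* moved to 0.49. Elsewhere too 1 library moved these values. In PBS *Apoe*-/-*Il27ra*+/- *Pmaip1* ran from −2.23 (without LT-HSC replicate 2) to −0.57 (without HPC-1 replicate 3), and *Bax* from −0.44 to −0.19 (without LT-HSC replicate 2 or HPC-1 replicate 3). In PBS *Apoe*-/-*Il27ra*-/- *Pmaip1* ran from −1.45, without LT-HSC replicate 2 at 2.83 CPM, to 0.02 (without HPC-1 replicate 2), *Bax* from −0.24 to 0.12 (without HPC-1 replicate 1 or 3) and *Trp53* from −0.34 to −0.10 (without LT-HSC replicate 2 or 3). *Trp53* in PBS *Apoe*-/- was −0.80 or −0.40 without HPC-1 replicate 1 or 2, and *Bax* in Ang II *Apoe*-/-*Il27ra*-/- was −0.32 without HPC-1 replicate 2.

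In Ang II *Apoe*-/-*Il27ra*+/-, *Pmaip1* held 0 to 0.94 CPM in 4 LT-HSC (10 counts in all) and 3.18 to 6.18 CPM in 4 HPC-1 libraries (60 counts). It was the only member that edgeR called in a single pair (SE 1.05, adjusted p 0.0497). That is 1 of the 8 members that passed in both cell types (3 at an unadjusted p under 0.05), beside 18.2% of the 12926 such genes called (14.9% of all 18013) and 31.6% at that p. DESeq2 called 1 and limma 4 there, among them *Trp53* (−0.34, adjusted p 0.0363) and *Bax* (−0.79, adjusted p 0.0285). With upper-quartile or RLE normalization, no filter or the replicate block, edgeR did not call *Pmaip1* there. The edgeR call ended when any of the 8 libraries was left out: without LT-HSC replicates 1 to 4 the value was −2.68, −2.89, −2.89 and −3.60, and without HPC-1 replicates 1 to 4 it was −3.03, −3.05, −3.02 and −2.66 (adjusted p 0.0549 to 0.113). In the other 5 pairs edgeR called 0 of 8 such members, with 1, 2, 0, 0 and 2 at an unadjusted p under 0.05 in PBS *Apoe*-/-, PBS *Apoe*-/-*Il27ra*+/-, PBS *Apoe*-/-*Il27ra*-/-, Ang II *Apoe*-/- and Ang II *Apoe*-/-*Il27ra*-/-. Beside these stand 4.35%, 9.37%, 0.952%, 13% and 15.2% of the 12926 genes called (3.33%, 7.67%, 0.883%, 10.4% and 12.5% of all 18013), and 22.2%, 24.3%, 12.1%, 29.4% and 29.3% at an unadjusted p under 0.05. DESeq2 and limma each called 1 member in Ang II *Apoe*-/-*Il27ra*-/- and 0 in the other 4 pairs, and limma's was *Pmaip1* (−2.72, adjusted p 0.00409).

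The number of all 18013 genes called in a single pair moved too, with the setting and with 1 library. The 600 genes of PBS *Apoe*-/- became 192 with the replicate block, 2600 with the compared groups alone, and 216 or 55 without replicate 1 or 2 of the HPC-1. The 1382 of PBS *Apoe*-/-*Il27ra*+/- became 3271 with limma and 507 without LT-HSC replicate 3. In PBS *Apoe*-/-*Il27ra*-/-, 159 became 2646 with limma, 0 with the compared groups alone or without LT-HSC replicate 1, and 1164 without LT-HSC replicate 2. After Ang II, the 1868 of *Apoe*-/- became 611 with the compared groups alone and 1113 without LT-HSC replicate 1, the 2676 of the heterozygotes 1867 without HPC-1 replicate 1 and 3976 with limma, and the 2257 of the knockouts 1270 without HPC-1 replicate 3 and 5290 with limma.

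A difference called in Ang II *Apoe*-/-*Il27ra*+/- and not in Ang II *Apoe*-/-*Il27ra*-/- was tested directly. The difference between *Apoe*-/-*Il27ra*-/- and *Apoe*-/-*Il27ra*+/- after Ang II was compared between LT-HSC and HPC-1, and edgeR called 0 of 9 members with 0% of all 18013 genes called (111 genes with no filter), 0 members at an unadjusted p under 0.05 (2.94% of all genes), and 0 by DESeq2 and limma.

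Ang II for 2 weeks went with no called change in any of the 10 genes. In LT-HSC, 8 of the 10 passed the filter on low counts, and the 24 differences between Ang II and PBS in 3 genotypes ran from −1.59 to 1.02 on the log2 scale. The smallest adjusted p was 0.477. In HPC-1, 9 passed the filter, and 27 differences ran from −1.72 to 0.62 with every adjusted p at 1. By edgeR 0 of these 51 tests were called, 0 had an unadjusted p under 0.05 (0.917% to 13.9% of all genes did), and DESeq2 and limma called 0. Of all genes, 0.672% were called in *Apoe*-/- LT-HSC, 0% in the LT-HSC heterozygotes, 0% in the LT-HSC knockouts, and 0% in each of the 3 genotypes in HPC-1. With no filter the 0 genes of the LT-HSC became 57 in heterozygotes and 104 in knockouts, and those of the HPC-1 11 and 10. The *Apoe*-/- comparison in LT-HSC rests on 1 PBS library, taken to vary like the other groups, and its 110 called genes became 0 with limma, 34 with the replicate block, 372 with DESeq2, and 446 or 176 without replicate 1 or 2 of Ang II *Apoe*-/-.

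*Il27ra* genotype went with no called change in any of the 10 genes, and the differences with the smallest p were those of *Trp53inp1*. Of the LT-HSC given PBS, the library labelled *Apoe*-/- held 19.5 CPM of *Trp53inp1*, the heterozygotes 43.1, 45.2 and 47.8, and the knockouts 36.1, 48.0 and 65.6. Of those given Ang II, the *Apoe*-/- pair held 20.1 and 38.2 CPM, the heterozygotes 47.9, 52.6, 47.3 and 38.6, and the knockouts 45.2, 54.2, 45.3 and 57.6. The library labelled PBS *Apoe*-/-, whose *Il27ra* level lay in the knockout range, was the lowest, and of those given Ang II the *Apoe*-/- pair was, with its replicate 2 next to the lowest heterozygote. For HPC-1 given PBS the *Apoe*-/- libraries held 35.3 and 25.8 CPM, the heterozygotes 67.8, 113 and 49.5, and the knockouts 61.6, 88.1 and 47.9. For HPC-1 given Ang II the *Apoe*-/- libraries held 46.4, 35.1 and 15.1 CPM, the heterozygotes 46.3, 34.6, 78.2 and 63.3, and the knockouts 56.0, 59.8, 26.1 and 59.6. In HPC-1 the *Apoe*-/- libraries lay below the others after PBS, where heterozygotes and knockouts overlapped, and after Ang II all 3 genotypes overlapped. The 3 *Apoe*-/- groups other than that library had means of 32.2 CPM in Ang II HPC-1, 30.6 in PBS HPC-1 and 29.2 in Ang II LT-HSC, below 45.4 to 76.8 CPM in the 8 groups of heterozygotes and knockouts, and in the order of the 12 groups no step between neighbours was wider than their SD.

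By edgeR the *Trp53inp1* differences were 1.37 (SE 0.388, adjusted p 0.177) for *Apoe*-/-*Il27ra*-/- against *Apoe*-/- and 1.25 (SE 0.387, adjusted p 0.238) for *Apoe*-/-*Il27ra*+/- against *Apoe*-/- in PBS LT-HSC, where *Apoe*-/- is the 1 library with the doubtful label, and 0.81 (SE 0.273, adjusted p 0.13) and 0.68 (SE 0.272, adjusted p 0.227) in Ang II LT-HSC. In PBS HPC-1 they were 1.10 (SE 0.456, adjusted p 0.694) and 1.32 (SE 0.458, adjusted p 1). The comparisons within a cell type and agent share their *Apoe*-/- libraries. Only these 6 of the 102 genotype tests of the members had an unadjusted p under 0.05, which 1.14% to 17.7% of all genes had in the 12 comparisons. In Ang II LT-HSC the values were 0.42 and 0.30 without replicate 1 of *Apoe*-/-, and without its replicate 2 *Apoe*-/-*Il27ra*-/- against *Apoe*-/- was called (1.33, adjusted p 0.0477). A call also appeared with no filter on low counts in PBS HPC-1 (1.34 for *Apoe*-/-*Il27ra*+/- against *Apoe*-/-, adjusted p 0.034). The 48 genotype differences of members in LT-HSC ran from −2.67 to 1.37 and the 54 in HPC-1 from −1.64 to 1.32, with smallest adjusted p 0.13 and 0.666.

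edgeR, DESeq2 and limma each called 0 members in all 12 genotype comparisons. The shares of all genes called by edgeR in LT-HSC after PBS were 0.0855% for *Apoe*-/-*Il27ra*-/- against *Apoe*-/-, 0% for *Apoe*-/-*Il27ra*-/- against *Apoe*-/-*Il27ra*+/- and 0.0489% for *Apoe*-/-*Il27ra*+/- against *Apoe*-/-, and after Ang II 1.69%, 0% and 0.831% in the same order. In HPC-1 they were 0.0152%, 0% and 0% after PBS and 0%, 0% and 0% after Ang II. In Ang II LT-HSC the 277 genes for *Apoe*-/-*Il27ra*-/- against *Apoe*-/- ran from 32 with the compared groups alone to 833 with no filter (98 without replicate 3 of the knockouts, 627 without replicate 1 of *Apoe*-/-). The 136 for *Apoe*-/-*Il27ra*+/- against *Apoe*-/- ran from 37 to 496 with the same 2 settings (53 without heterozygote replicate 4, 565 without replicate 1 of *Apoe*-/-). After PBS the 14 and 8 genes against *Apoe*-/- reached 342 and 165 with no filter. With no filter the 0 genes for *Apoe*-/-*Il27ra*-/- against *Apoe*-/-*Il27ra*+/- in LT-HSC became 193 after PBS and 249 after Ang II. In HPC-1 the highest counts in any setting were 52, 1 and 21 after PBS and 47, 1 and 33 after Ang II. The Ang II response of *Apoe*-/-*Il27ra*-/- was also compared with that of *Apoe*-/-*Il27ra*+/-: of 8 members in LT-HSC and 9 in HPC-1, edgeR called 0, DESeq2 and limma called 0, 0 had an unadjusted p under 0.05 (2.53% and 1.28% of all genes in the same order), and 0% of all genes were called in either cell type (71 and 2 genes with no filter).

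Markers of intestinal epithelium moved with the *Apoe*-/- label in these libraries. Over 15 such genes, the sum was 359 CPM in the LT-HSC library labelled PBS *Apoe*-/- (14 of 15 detected, most abundant *Krt18* at 100.6 CPM, *Phgr1* at 0), and 509.9 CPM (14 detected, *Dmbt1* at 124 CPM, *Phgr1* at 0) and 544 CPM (12 detected, *Dmbt1* at 193 CPM, *Tff3*, *Phgr1* and *Reg3g* at 0) in the pair of *Apoe*-/- LT-HSC given Ang II. The other 14 LT-HSC libraries had 35.1 to 126.8 CPM with 3 to 13 detected, with medians of 98.1 CPM in PBS *Apoe*-/-*Il27ra*+/-, 100.5 in PBS *Apoe*-/-*Il27ra*-/-, 95 in Ang II *Apoe*-/-*Il27ra*+/- and 98.0 in Ang II *Apoe*-/-*Il27ra*-/- and *Krt18* as their most abundant. HPC-1 of *Apoe*-/- had 107 and 86.9 CPM after PBS and 124, 112 and 320.1 CPM after Ang II, with 12 to 14 detected, and the other HPC-1 libraries 26.1 to 91.7 CPM. *Krt18* was the most abundant in 4 of these 5 *Apoe*-/- libraries and *Dmbt1* (70.1 CPM) in the one at 320.1 CPM. The part of these markers in the *Trp53inp1* levels and in the *Apoe*-/- comparisons was not tested.

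Beyond the 10 genes, 64 further genes of the p53 pathway, in 5 lists by role, were followed in the same fits. Of these, 58 passed the filter in each cell type by itself, and 32 of them were called between LT-HSC and HPC-1, 11 higher and 21 lower in LT-HSC (55.2%), beside 44.6% of the 12926 such genes, 2382 higher and 3383 lower. *Plk2*, *Plk3* and *Fas* passed in LT-HSC and not in HPC-1, so that their high level in LT-HSC let them into the test. Between the cell types they are given by their levels and left out of the counts and medians, except where a count is said to include them. Counts for Ang II, genotype and differences in response include them where they were tested. *Cdkn2a*, *Gls2* and *Bcl2a1b* did not pass the filter. With *Plk2*, *Plk3* and *Fas* included, edgeR called 35 of 61, DESeq2 36 and limma 37. The split between directions moved with the scaling. Of these called genes, 40% were higher in LT-HSC by TMM and 50% by RLE or DESeq2. The share over all called genes moved too (46.1% by TMM, 54.7% by RLE and 55.7% by DESeq2). *Plk2*, *Plk3* and *Fas* entered by their high level in LT-HSC, and without them 11 of the 32 called by TMM were higher. The lists, like the 10 genes, were chosen with earlier results of these data known. Their shares, here and list by list below, are thus a description alone.

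*Cdkn1a* encodes p21, which blocks cyclin-dependent kinases, and is the classic arrest target of p53. In the mean difference it was lower in LT-HSC, by more than *Trp53*. *Cdkn1a* had 0 to 10.6 CPM in LT-HSC (median 1.74, n = 17) and 4.31 to 12.1 CPM in HPC-1 (median 6.97, n = 19). 16 of 17 LT-HSC libraries lay below every HPC-1 library, and the exception at 10.6 CPM was replicate 2 of PBS *Apoe*-/-*Il27ra*-/-, the library with an HPC-1 marker profile. The mean log2 difference was −1.80 (3.47-fold lower, SE 0.391, 95% confidence interval −2.59 to −1.01, adjusted p 0.000269), and −2.41 (adjusted p 7.99e-07) without the 3 libraries. It was called in Ang II *Apoe*-/-*Il27ra*+/- (−2.19, adjusted p 0.0342) and Ang II *Apoe*-/-*Il27ra*-/- (−2.12, adjusted p 0.0406), and not in PBS *Apoe*-/- (−0.69, 0.86), PBS *Apoe*-/-*Il27ra*+/- (−2.33, 0.0753), PBS *Apoe*-/-*Il27ra*-/- (−0.76, 0.814) or Ang II *Apoe*-/- (−2.67, 0.0965). The Ang II *Apoe*-/-*Il27ra*+/- call ended without LT-HSC replicate 2 (−2.27), 3 (−2.07) or 4 (−2.01) or HPC-1 replicate 2 (−1.89) or 4 (−2.11). The Ang II *Apoe*-/-*Il27ra*-/- call ended without LT-HSC replicate 1 (−1.87), 3 (−2.01) or 4 (−2.34) or HPC-1 replicate 2 (−2.06), 3 (−2.11) or 4 (−1.97).

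Of 14 tested kinases and other regulators upstream of p53, 6 were lower and 2 higher in LT-HSC (57.1%), with a median of −0.20, beside 44.6% called and a median of −0.09 over the 12926 genes, which also lean to lower. The DNA damage kinases *Atm* (−0.32, adjusted p 0.000834), *Atr* (−0.23, 0.0308) and *Prkdc* (−0.39, 0.000129), the checkpoint kinases *Chek1* (−1.21, SE 0.203, 7.53e-06) and *Chek2* (−0.39, 0.01) and the deubiquitinase *Usp7* (−0.21, 0.0155), which acts on Mdm2 and p53, were lower. *Hipk2*, a kinase that phosphorylates p53 (0.56, SE 0.0837, adjusted p 7.59e-07), and *Trp53bp1*, a scaffold at broken DNA (0.36, 0.000986), were higher. The mean level of *Hipk2* was 235 CPM in LT-HSC and 160.5 CPM in HPC-1, and that of *Chek1* 17.8 and 34.7 CPM. *Atr* was called in 6 of 13 other settings (−0.29 to −0.08), *Chek2* in 8 (−0.49 to −0.02) and *Usp7* in 8 (−0.26 to −0.06), each nearest to 0 in the libraries over 4 M counts. Among fits without 1 library, *Chek2* was not called without replicate 2 of PBS *Apoe*-/- HPC-1 (−0.30), and *Usp7* not without replicate 4 of Ang II *Apoe*-/-*Il27ra*-/- LT-HSC (−0.18) or, in HPC-1, replicate 1 of PBS *Apoe*-/-*Il27ra*+/- (−0.12) or replicate 2 of PBS *Apoe*-/-*Il27ra*-/-, Ang II *Apoe*-/- or Ang II *Apoe*-/-*Il27ra*-/- (−0.17 each). *Atr* was called in 22 of 36 fits without 1 library (−0.27 to −0.14, adjusted p up to 0.231, the last without replicate 1 of PBS *Apoe*-/-*Il27ra*+/- HPC-1, which also took *Atm* to −0.21).

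Cell cycle and feedback targets split in direction, 3 of 12 higher and 3 lower (50%, beside 44.6% of the 12926 genes) with a median of 0.03 (−0.09 over the 12926). *Plk2*, a polo-like kinase, was all but confined to LT-HSC: 0.15 to 53.2 CPM (mean 24.0) in LT-HSC against 12 counts over 19 HPC-1 libraries, 12 of them at 0. The lowest LT-HSC library, at 1 count, was again replicate 2 of PBS *Apoe*-/-*Il27ra*-/-, and the other 16 lay above every HPC-1 library. *Plk3* had 0 to 9.93 CPM in LT-HSC (mean 4.06) and 0 to 7.67 CPM in HPC-1 (mean 1.31). The stress-induced inhibitor of mTORC1 *Sesn2* (0.71, adjusted p 0.0298), *Sfn* (14-3-3 sigma; 0.68, 0.0245) and *Trp53i11* (0.85, 0.000388) were higher. *Gtse1*, a microtubule protein that takes p53 out of the nucleus (−1.10, adjusted p 1.51e-06), and the cyclin *Ccng2* (−0.85, 1.91e-05) were lower along with *Cdkn1a*. The call of *Sesn2* ended without replicate 1 of Ang II *Apoe*-/- LT-HSC (0.65) or of PBS *Apoe*-/- HPC-1 (0.68), and that of *Sfn* without replicate 1 of Ang II *Apoe*-/- LT-HSC (0.64) or replicate 2 of PBS *Apoe*-/- HPC-1 (0.60). *Sesn2* was called in 11 of 13 other settings (0.40 to 0.90) and *Sfn* in 9 (0.14 to 0.82).

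**Figure D3:**
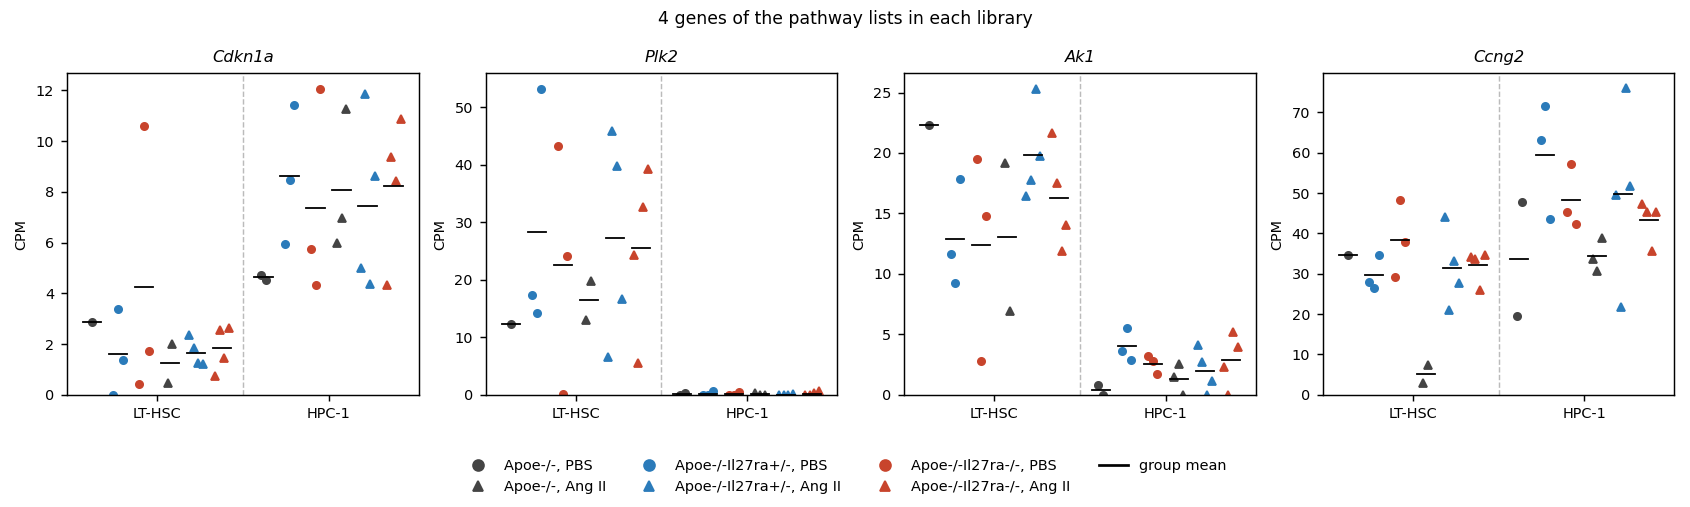
Level in CPM (vertical axis) of *Cdkn1a*, *Plk2*, *Ak1* and *Ccng2* in every library, by cell type, agent and *Il27ra* genotype (horizontal axis). *Plk2* is at 0 to 0.61 CPM in all 19 HPC-1 libraries, and *Ccng2* is lowest, at 2.88 and 7.45 CPM, in the *Apoe*-/- LT-HSC given Ang II.

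Among death targets 1 of 12 was higher and 5 lower in LT-HSC (50%), with a median of −0.32, beside 44.6% and −0.09 over the 12926 genes, and no lean of the list beyond theirs was tested. The death receptor *Tnfrsf10b* was higher (0.99, adjusted p 0.0019), and the receptor *Fas* had 0 to 6.58 CPM (mean 2.60) in LT-HSC and 0 to 2.09 CPM (mean 0.392) in HPC-1, where 11 of 19 libraries were at 0. Lower were *Bid*, which links death receptors to the mitochondrion (−1.21, SE 0.145, adjusted p 1.17e-08; 20.7 and 42.7 CPM), the BH3-only gene *Bcl2l11* (BIM; −0.72, 0.000468), the apoptosome gene *Apaf1* (−0.40, 0.0021), *Pidd1* of the caspase-2 platform (−0.45, 0.0164) and the inflammatory caspase *Casp1* (−0.62, 0.00165).

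Of 15 tested genes for repair and metabolism, 3 were higher and 5 lower in LT-HSC (53.3%, beside 44.6% of the 12926 genes), with a median of −0.23 (−0.09 over the 12926). *Ak1*, adenylate kinase, was higher (3.12, SE 0.365, adjusted p 7.28e-09) at 2.83 to 25.3 CPM in LT-HSC (mean 15.8) and 0 to 5.53 CPM in HPC-1 (mean 2.32), with replicate 2 of PBS *Apoe*-/-*Il27ra*-/- the lowest LT-HSC. *Rrm2b*, the p53-induced ribonucleotide reductase subunit (0.53, 0.0163), and *Ddit4*, an inhibitor of mTORC1 (0.84, 0.0216), were higher. *Xpc*, which recognises DNA lesions (−0.67, adjusted p 1.39e-05), the recombination gene *Rad51c* (−1.68, 0.0045), *Tigar*, a regulator of glycolysis (−1.07, 0.0199), the ribosomal protein gene *Rps27l* (−0.79, 0.000136) and the peptide transporter *Tap1* (−0.24, 0.0492) were lower. *Tap1* was called in just 8 of 36 fits without 1 library (−0.30 to −0.15, adjusted p up to 0.22, the last without the library labelled PBS *Apoe*-/-), and *Ddit4* was not called without that library (0.66) or without replicate 1 of Ang II *Apoe*-/- LT-HSC (0.76). In other settings *Tap1* was called in 6 of 13 and *Ddit4* in 10.

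Of 5 other BCL2-family genes 2 were higher and 2 lower in LT-HSC, with a median of −0.11 beside 44.6% called and a median of −0.09 over the 12926 genes, and the survival genes among them went opposite ways. *Bcl2*, which blocks BAX and BAK, was lower in LT-HSC (142 against 235 CPM on average; −0.72, SE 0.0933, adjusted p 5.87e-08), and its relative *Bcl2l1* (BCL-XL) was higher (47.9 against 21.1 CPM; 1.21, SE 0.139, adjusted p 5.1e-09). *Mcl1*, the survival protein that NOXA binds, was slightly higher (213 against 174 CPM; 0.27, adjusted p 0.0139). *Bak1*, the partner of BAX in the mitochondrial pore, was lower (46.3 against 75.6 CPM; −0.68, SE 0.1, adjusted p 7.75e-07).

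Within single pairs of LT-HSC and HPC-1 the same lists gave fewer calls. The counts are again over the 58 genes that passed in both cell types. In PBS *Apoe*-/- 3 were called, beside 4.35% of the 12926 (9 at an unadjusted p under 0.05, beside 22.2%). Its LT-HSC arm is the 1 library with the doubtful label, which has no spread of its own and was taken to vary like the other groups. The 3 were *Gtse1* (−2.82), *Bid* (−2.57) and *Ak1* (47 counts in 1 LT-HSC against 2 counts in 2 HPC-1 libraries). Without HPC-1 replicate 2 the calls of *Gtse1* and *Ak1* ended. In PBS *Apoe*-/-*Il27ra*+/-, 3 were called beside 9.37%, *Xpc* (−1.12, adjusted p 0.00657), *Bcl2* (−0.66, 0.0422) and *Bak1* (−0.75, 0.0309), and in PBS *Apoe*-/-*Il27ra*-/- 0, beside 0.952%. Of the 6 fits of PBS *Apoe*-/-*Il27ra*+/- without 1 library *Xpc* was called in 4, and *Bcl2* (−0.80 to −0.38) and *Bak1* in 1, that without LT-HSC replicate 1. In the HPC-1 of these pairs *Plk2* had 3 counts (PBS *Apoe*-/-*Il27ra*+/-) and 2 counts (PBS *Apoe*-/-*Il27ra*-/-).

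With Ang II in *Apoe*-/-, 13 were called beside 13% of the 12926 genes, 5 of them higher in LT-HSC: *Hipk2* (0.72, 0.0229), *Sesn2* (2.38, 0.019), the endoplasmic reticulum gene *Ei24* (0.96, 0.0462), *Ak1* (3.18, 0.0192) and *Bcl2l1* (2.09, 0.000312). Lower in LT-HSC there were *Chek1* (−2.36, 0.00523), *Prkdc* (−0.81, 0.0093), *Gtse1* (−1.33, 0.0381), *Ccng2* (−2.73, 0.000296), *Bid* (−1.09, 0.0422), *Rps27l* (−1.43, 0.0286), *Bcl2* (−0.88, 0.0129) and *Bak1* (−1.02, 0.00829). In the 5 fits without 1 library *Gtse1* and *Bid* were called in 0, *Ei24* (0.59 to 1.25) and *Rps27l* in 1, *Ak1* in 2, *Hipk2*, *Sesn2* and *Bcl2* in 3, *Chek1*, *Prkdc* and *Bak1* in 4, and *Ccng2* and *Bcl2l1* in 5. LT-HSC replicate 1 left out ended the calls of 10 of these 13 and took *Chek1* to −1.53, while without replicate 2 it was −4.54.

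With Ang II in *Apoe*-/-*Il27ra*+/-, 11 list genes were called beside 18.2% of the 12926 genes, 4 higher and 7 lower in LT-HSC. Higher in LT-HSC were *Hipk2* (0.77, adjusted p 0.00132), *Tnfrsf10b* (1.73, 0.0206), *Ak1* (3.37, 0.00116) and *Eda2r*, a receptor of the TNF family (84 against 3 counts, 0.018). Outside this count, *Plk3* had 95 counts in LT-HSC and 7 in HPC-1 there, and *Fas* 63 and 2. Beside *Cdkn1a*, lower in LT-HSC were *Bid* (−1.37, 0.000377), *Casp1* (−1.04, 0.0162), *Xpc* (−0.83, 0.00869), *Rad51c* (9 against 72 counts, 0.00672), *Bcl2* (−0.53, 0.0371) and *Bak1* (−0.79, 0.0036). Of the 8 fits without 1 library, 3 called *Cdkn1a* and *Bcl2*, 5 called *Tnfrsf10b*, *Eda2r* (3.12 to 6.81) and *Casp1*, and all 8 called the other 6. With Ang II in *Apoe*-/-*Il27ra*-/-, 9 were called beside 15.2% of the 12926 genes: *Ak1* (2.46, adjusted p 0.0117) and *Bcl2l1* (1.28, 0.00166) higher, and *Cdkn1a*, *Prkdc* (−0.46, 0.0441), *Usp7* (−0.43, 0.0343), *Bid* (−1.01, 0.00774), *Xpc* (−0.68, 0.0373), *Rps27l* (−1.08, 0.0166) and *Bcl2* (−0.95, 0.000399) lower. Here all 8 fits without 1 library called *Ak1*, *Bcl2* and *Bcl2l1*, 7 called *Bid*, 4 *Rps27l*, 3 *Usp7*, 2 *Prkdc* and *Cdkn1a*, and 1 *Xpc*. In the 12 other settings *Prkdc* was called in 6 and *Usp7* in 8 there.

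Within a cell type, 2 list genes were called, both in comparisons with the Ang II *Apoe*-/- LT-HSC. *Ccng2* had 2.88 and 7.45 CPM in these 2 libraries, 34.7 CPM in the library labelled PBS *Apoe*-/- and 21.1 to 48.2 CPM in the other 14 LT-HSC libraries, so that it was low in just these 2. It was lower after Ang II than after PBS in *Apoe*-/- (−2.75, SE 0.484), where the PBS arm is 1 library taken to vary like the other groups. After Ang II it was higher in *Apoe*-/-*Il27ra*-/- (2.65, SE 0.399, adjusted p 0.00257) and *Apoe*-/-*Il27ra*+/- (2.61, 0.00356) than in *Apoe*-/-. *Polk*, a DNA polymerase that copies past lesions, had 13.8 CPM in the library labelled PBS *Apoe*-/-, and 45.6 and 43.7 CPM in the pair given Ang II. The others held 26.8 to 46.0 CPM, a range that holds that pair. The difference of 1.69 between Ang II and PBS (SE 0.384) is thus that of the 1 PBS library, which has no spread of its own. For Ang II against PBS 2 of 61 list genes were called beside 0.672% of all genes, for *Apoe*-/-*Il27ra*-/- against *Apoe*-/- 1 beside 1.69% and for *Apoe*-/-*Il27ra*+/- against *Apoe*-/- 1 beside 0.831%. At an unadjusted p under 0.05 there were 7, 12 and 13 of 61 in the same order, beside 13.9%, 17.7% and 15.7% of all genes. DESeq2 called 2, 3 and 3 list genes, and limma called 0 in each (adjusted p 0.587 for *Ccng2* and *Polk* after Ang II against PBS). Fitted on the compared groups alone, *Ccng2* was not called in any of its 3 comparisons (adjusted p 0.477, 0.0614 and 0.0572), nor was *Polk* (0.718), which also lost its call with no filter (0.0989) and with the replicate block (0.0773). The *Apoe*-/- LT-HSC are also the libraries with the raised intestinal marker sums given above, whose part in these results was not tested.

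In the other within-cell-type comparisons of Ang II and genotype and in the 3 tests of a difference in response, edgeR called 0 of the list genes. At an unadjusted p under 0.05 there were 4 of 296 tests for Ang II, 26 of 592 for genotype and 5 of 180 for the differences in response, beside 0.917% to 4.93%, 1.14% to 10.3% and 1.28% to 2.94% of all genes, and DESeq2 and limma called 0 in these.

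Across the 36 libraries the 9 tested genes did not rise and fall as one group. Over 36 pairs Pearson's r of log2 CPM ran from −0.52 to 0.54 with a median of 0.0, and after subtracting the 12 group means from −0.43 to 0.42 with a median of 0.02. Among the 3 genes called lower in LT-HSC, r was 0.54 for *Trp53* with *Bax*, 0.51 for *Trp53* with *Pmaip1* and 0.51 for *Bax* with *Pmaip1*. These 3 were picked for that shared difference, which is part of r over both cell types, and after the group means were subtracted r was 0.22, 0.20 and 0.27. For *Trp53* and *Ccng1* it was −0.52 before and −0.19 after, and *Mdm2* stood at −0.50 with *Bax* and −0.48 with *Pmaip1* before. Within groups, *Mdm2* with *Pmaip1* stood at −0.43, *Mdm2* with *Bax* at −0.36 and *Mdm4* with *Trp53inp1* at 0.42. Each r is a description over 36 libraries that share cell type, depth and group, with several genes at low counts.

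For each tested gene 4 or 5 of the 5 genes, out of 18013, with the highest Pearson's r of log2 CPM over the 36 libraries are named, as a description with no p, and the points share libraries, depth and cell type. *Trp53* ran closest to *Anapc5*, *Spice1*, *Rpl29* and *Ddx41* (r 0.821 to 0.806). *Mdm2* went most with *Kmt2e*, *Stap1*, *Cd84* and *Zfp866* (r 0.786 to 0.695). *Mdm4* was nearest to *Sugp2*, *Guf1*, *Fam199x*, *Mcoln1* and *Zscan26* (r 0.637 to 0.618). *Ccng1* was most like *Zbtb4*, *Agtr1a*, *Tmem132b*, *Tdrd9* and *Cyp7b1* (r 0.719 to 0.703). *Trp53inp1* lay closest to *Cep97*, *Tnks2*, *Mxd4*, *Cd1d1* and *Foxo3* (r 0.779 to 0.737). *Bax* went most with *Ncf4*, *Cope*, *Nelfcd*, *Pih1d1* and *Tcn2* (r 0.757 to 0.712). *Bbc3* was nearest to the unnamed gene ENSMUSG00000074140, *Amigo3*, *Cngb1*, *Zscan20* and *Mon2* (r 0.808 to 0.745). *Pmaip1* ran closest to *Uqcrfs1*, *Pphln1*, *Cers6*, *Psmb7* and *Ddost* (r 0.741 to 0.729). *Phlda3* was most like *Grip1*, *Gm11585*, *Yars2*, *Slc25a2* and *Rnf138* (r 0.644 to 0.604).

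After the 12 group means were subtracted, which leaves differences between replicates, the nearest genes were partly others. For *Trp53* they were *Elavl1*, *Mlf2*, *Med24*, *Thoc6* and *2610318N02Rik* (r 0.735 to 0.694). *Mdm2* then had *Stap1*, *Zfp68*, *Kmt2e* and *Dock9* (r 0.848 to 0.819). For *Mdm4* they were *9530082P21Rik*, *Zbtb48*, *Map4k2* and *Sugp2* (r 0.724 to 0.704). *Ccng1* then had *Gm12264*, *Cyp7b1*, *Gm16675*, *Tmem47* and *Tdrd9* (r 0.702 to 0.682). For *Trp53inp1* they were *4930581F22Rik*, *Arhgap4*, *Tcp11l2* and *Tmem104* (r 0.729 to 0.699). *Bax* then had *B3gat3*, *N4bp2l1*, *Fis1*, *Vrk3* and *Map3k11* (r 0.779 to 0.706). For *Bbc3* they were *Casc3*, the unnamed gene ENSMUSG00000074140, *Trim58*, the unnamed gene ENSMUSG00000056106 and *Zscan20* (r 0.826 to 0.768). *Pmaip1* then had *Wipf3*, *9430038I01Rik*, *E130215H24Rik*, *Pphln1* and *Gnal* (r 0.8 to 0.735). For *Phlda3* they were *Gm10767*, *Yars2*, *Rnf138*, *Psmc6* and *Ube2v2* (r 0.726 to 0.674). *Bbc3*, *Pmaip1* and *Phlda3* have few counts, and their nearest genes rest on small numbers.

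Promoter sequence was searched for the p53 half-site consensus, the 10-base motif of which a full p53 response element holds a pair, because the members are named as targets of p53. RefSeq (GRCm38.p6) promoter windows of 250 bases before to 50 bases after the start were found for 8 of the 10 genes (12 windows), with none for *Trp53inp1* or *Pmaip1*. The motif is its own reverse complement, so both strands were read at once. It matched in 4 of 12 windows (33.3%), in 4 genes, against 8.36% of 32851 windows of all promoters. A pair of half-sites with at most 13 bases between them was in 0 of the 12 windows and in 0.0731% of all. Of the 64 list genes 55 had a window, and 12 of 75 windows (16.0%) held a half-site, 1 of them a pair, in *Cdkn1a*. The sequences below show the match in each of the 4 members and both half-sites of the pair in *Cdkn1a*, as 30 bases of GRCm38.p6 read 5′ to 3′ on the gene's strand, with the matched half-site in capitals. They lie at chr11:69580274-69580303 (plus strand, 75 to 66 bases before the start), chr10:117710925-117710954 (minus, 186 to 177), chr11:40755452-40755481 (minus, 185 to 176), chr7:45467080-45467109 (minus, 201 to 192), chr17:29090896-29090925 (plus, 73 to 64) and chr17:29090918-29090947 (plus, 51 to 42). A match is a description of letters and says nothing of p53 binding there, and whether these windows act in LT-HSC or HPC-1 was not measured.
Trp53: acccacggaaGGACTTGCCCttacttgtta
Mdm2: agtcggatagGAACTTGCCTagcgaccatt
Ccng1: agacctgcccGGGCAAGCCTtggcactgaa
Bax: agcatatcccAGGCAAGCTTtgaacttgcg
Cdkn1a: tcctgggtggGGACTAGCTTtctggccttc
Cdkn1a: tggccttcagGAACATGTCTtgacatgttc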

How the data were processed

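Stranded RNA sequencing of LT-HSC and HPC-1 gave a table of RSEM expected counts, deposited by the authors in whole numbers for 38887 genes and 36 libraries (alignment to mm10 with Bowtie2 and RSEM 1.2.31 per the labels, while the study's methods name STAR; the Ensembl release is not stated). Counts were analysed in R 4.3.3 with edgeR 4.0.16 (filterByExpr by group, TMM, robust quasi-likelihood F test), in 1 model of 12 groups for LT-HSC against HPC-1 and 1 model per cell type for Ang II and genotype. P-values were adjusted by Benjamini and Hochberg over all genes tested in a comparison (18013, 16365 in LT-HSC, 13199 in HPC-1), and a gene was called at an adjusted p under 0.05. CPM are TMM-normalized, log2 CPM used a prior count of 2, and levels between genes are CPM per kilobase of the union of a gene's exons. A group of 1 library was taken to vary like the others. Alternatives were DESeq2 1.42.0, limma 3.58.1 (voom with sample weights), upper-quartile and RLE normalization, no filter, a filter at a mean of 10 counts, a fit that is not robust, a replicate block, a covariate of Y-linked genes, the compared groups alone, each library left out in turn, and the fit without 3 LT-HSC libraries that stand apart. Libraries under or over 4 M counts, and this depth class as a term, were added after seeing the data. Libraries of the 2 cell types with the same replicate number did not go together throughout (r of deviations from group means −0.35 to 0.529 in 16 pairs). Within a cell type every same-numbered pair of heterozygote and knockout had r over 0.1 in LT-HSC after PBS (0.124 to 0.485) and Ang II (0.139 to 0.585) and in HPC-1 after PBS (0.262 to 0.709), as had every pair of PBS and Ang II knockout LT-HSC (0.154 to 0.501). The numbers thus pair these groups by the values alone, since the labels name no shared animal, litter or batch. With the replicate block 0 genes were called in these 4 comparisons, as without it. In HPC-1 after PBS the same-numbered pairs of *Apoe*-/- and heterozygote also had r over 0.1 (0.206 and 0.328). There the block took the called genes from 0 to 2, with 0 members among them. In HPC-1 after Ang II heterozygotes and knockouts were not paired so (−0.16 to 0.649). The procedure was tested on simulated data, and the outcome is not given here. The members and lists were chosen with earlier results of these data known. Named genes were the 10 members, *Cdkn1a*, per list the first 6 genes by adjusted p, higher and lower taken apart, among those called in the mean difference of LT-HSC and HPC-1, every list gene called in another comparison, and 4 or 5 of the 5 genes most like each member. Promoter windows were searched as sequence alone, and 2 members had no window.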

Additional observations from a re-analysis of the deposited data

Results flagged for a closer look

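In 39 sets of 4 libraries, which are the 10 genes in the 4 groups of that size less *Gdf15* in Ang II *Apoe*-/-*Il27ra*+/- HPC-1, where all were at 0, a single library stood far from the other 3 in 5 cases. The cutoff used is passed by chance in about 1 in 20 sets of normally spread values, which sets with few counts are not, so that no excess over chance is claimed. For *Bbc3*, replicate 4 of the LT-HSC given Ang II in *Apoe*-/-*Il27ra*+/- was highest at 8.82 CPM, against 4.81 to 5.18 CPM in the others. *Pmaip1* in Ang II *Apoe*-/-*Il27ra*+/- HPC-1 was highest in replicate 4 at 6.18 CPM, against 3.18 to 3.48 CPM. *Trp53inp1* in Ang II *Apoe*-/-*Il27ra*-/- HPC-1 was lowest in replicate 3 at 26.1 CPM, against 56.0 to 59.8 CPM. *Gdf15* in Ang II *Apoe*-/-*Il27ra*-/- was above 0 in 1 library of each cell type, replicate 3 of LT-HSC at 0.21 CPM (1 count) and replicate 1 of HPC-1 at 1.15 CPM (4 counts), and at 0 in the other 3, where any count above 0 stands apart by construction. None of the 26 tests of a difference in response between genotypes or cell types called a member by edgeR, DESeq2 or limma, and 0 had an unadjusted p under 0.05.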

How the results depend on the processing

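With the alternatives, *Trp53* kept its direction between LT-HSC and HPC-1 in 13 of 13 settings (−0.34 to −0.22) and its call in 12 of 13, and *Cdkn1a* kept its call in 13 of 13. The calls of *Bax* and *Pmaip1* depend on the normalization, the filter and single libraries. The median of all genes in the mean difference was −0.01 with TMM, 0.03 with upper-quartile, 0.06 with RLE and 0.10 with DESeq2 scaling, and *Trp53* was below it in each. Genes with few counts, among them *Pmaip1*, *Phlda3* and *Gdf15*, are limited by depth. The libraries over 4 M counts hold no *Apoe*-/- and give a mean of 4 differences. The block turned no call of a member or list gene by genotype or Ang II other than that of *Polk*, and the pairing of replicate numbers is given with the methods. Where a count or sign changed below, the cause was not tested.

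Members called in the mean difference numbered 3, and 1 in libraries under 4 M counts, 0 in those over, and 1 to 4 without 1 library (1 without replicate 1 of Ang II *Apoe*-/- LT-HSC or replicate 2 or 3 of PBS *Apoe*-/-*Il27ra*-/- HPC-1). The count for Ang II *Apoe*-/-*Il27ra*+/-, 1, became 0 with upper-quartile, RLE, no filter, the block, or any of the 8 libraries left out, and 4 with limma. It was also 0 with a mean of at least 10 counts and with the compared groups alone, where the filter removed *Pmaip1* and it was not tested. For Ang II *Apoe*-/-*Il27ra*-/- 0 became 1 with DESeq2 and 1 with limma. For *Apoe*-/-*Il27ra*+/- against *Apoe*-/- in PBS HPC-1 0 became 1 with no filter, and for *Apoe*-/-*Il27ra*-/- against *Apoe*-/- in Ang II LT-HSC leaving out 1 library gave 0 to 1 (1 without replicate 2 of Ang II *Apoe*-/-).

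Counts of list genes here include *Plk2*, *Plk3* and *Fas*, let into the test between the cell types by their high level in LT-HSC. Of the 58 genes that passed in both, 32 were called in the mean difference. After PBS 3 were called in heterozygotes and 0 in knockouts, and after Ang II 13 in *Apoe*-/-, 11 in heterozygotes and 9 in knockouts. The 1 list gene given below for PBS *Apoe*-/-*Il27ra*-/- is *Plk2*. Genes called in the mean difference numbered 6435 of all tested and 2258 in libraries over 4 M counts. List genes called there fell from 35 to 8 over 4 M counts. In PBS *Apoe*-/- 3 became 5 with DESeq2, 5 with no filter, 9 with the compared groups alone and 1 to 3 without 1 library (1 without HPC-1 replicate 2). In PBS *Apoe*-/-*Il27ra*+/- 4 became 7 with DESeq2, 17 with limma, 8 with the block, 8 with the depth term, 11 without the 3 libraries, 9 with the compared groups alone and 1 to 5 without 1 library (2 without LT-HSC replicate 2 or 3, 1 without HPC-1 replicate 1). In PBS *Apoe*-/-*Il27ra*-/- 1 became 3 with DESeq2, 3 with no filter, 19 with limma, 2 with the block, 7 without the 3 libraries, 0 with the compared groups alone and 0 to 5 without 1 library (5 without LT-HSC replicate 2). With Ang II, 14 in *Apoe*-/- became 6 with limma, 3 with the compared groups alone and 5 to 12 without 1 library (5 without LT-HSC and 9 without HPC-1 replicate 1). The 14 of Ang II *Apoe*-/-*Il27ra*+/- became 8 to 15 without 1 library (8 without HPC-1 replicate 1). The 10 of Ang II *Apoe*-/-*Il27ra*-/- became 28 with limma, 18 without the 3 libraries and 4 to 14 without 1 library (5 without LT-HSC replicate 1, 4 without replicate 4, 5 without HPC-1 replicate 3). For Ang II against PBS in *Apoe*-/- LT-HSC 2 became 1 with no filter, 0 with limma, 1 with the block and 0 with the compared groups alone. For *Apoe*-/-*Il27ra*-/- against *Apoe*-/-*Il27ra*+/- in PBS LT-HSC 0 became 1 with no filter. In Ang II LT-HSC, *Apoe*-/-*Il27ra*-/- against *Apoe*-/- went from 1 to 3 with DESeq2, 4 with no filter, 0 with limma, 2 with the Y-linked covariate, 2 with the depth term, 2 without the 3 libraries, 0 with the compared groups alone and 1 to 3 without 1 library. *Apoe*-/-*Il27ra*+/- against *Apoe*-/- went from 1 to 3 with DESeq2, 4 with no filter, 0 with limma, 3 without the 3 libraries, 0 with the compared groups alone and 1 to 3 without 1 library.

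A change of sign is given first where a value was called or moved by more than its SE. Signs turned so for *Phlda3* in the mean difference over 4 M counts (0.36), *Pmaip1* in Ang II *Apoe*-/- with limma (−0.58), *Cdkn1a* for *Apoe*-/-*Il27ra*-/- against *Apoe*-/- in PBS LT-HSC with the block (−1.06), and *Cdkn1a* for *Apoe*-/-*Il27ra*-/- against *Apoe*-/-*Il27ra*+/- in Ang II HPC-1 with limma (−0.47). Without 1 library the range in Ang II *Apoe*-/- was −0.23 to 0.24 for *Trp53*, −5.78 to 1.78 for *Pmaip1* (both lowest without LT-HSC replicate 2) and −0.76 to 0.49 for *Bax* (highest without LT-HSC replicate 1). In PBS LT-HSC *Cdkn1a* ran from −1.29 to 1.09 for *Apoe*-/-*Il27ra*-/- against *Apoe*-/- and −0.55 to 2.35 for *Apoe*-/-*Il27ra*-/- against *Apoe*-/-*Il27ra*+/-, lowest without replicate 2 of *Apoe*-/-*Il27ra*-/-. Smaller changes of sign were those of *Bax* in PBS *Apoe*-/-*Il27ra*-/- (−0.05, up to 0.16 with limma and 0.12 without 1 library) and Ang II *Apoe*-/- (up to 0.10 with the block), and *Pmaip1* in PBS *Apoe*-/-*Il27ra*-/- (−0.44, 0.02 without 1 library) and with the block in Ang II *Apoe*-/-. *Cdkn1a* did so for *Apoe*-/-*Il27ra*+/- against *Apoe*-/- in Ang II HPC-1 (−0.14, up to 0.37 with limma) and Ang II LT-HSC (0.41, −0.27 without 1 library). For *Apoe*-/-*Il27ra*-/- it did so against *Apoe*-/- in PBS (limma, Y-linked covariate) and Ang II LT-HSC (−0.08) and Ang II HPC-1 (−0.20), and against *Apoe*-/-*Il27ra*+/- in Ang II LT-HSC (−0.05), PBS HPC-1 (0.05) and, without 1 library, Ang II HPC-1 (−0.03). None of these turned values was called.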
